A study of Mus musculus with 11 samples.

Results

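The effect of a longer loss of estradiol on DNA methylation was measured by setting 2 libraries of cells withdrawn for 72 h and then returned to estradiol for 48 h against 2 libraries of cells withdrawn for 24 h and then returned for 96 h. These 4 of the 11 libraries of the series were chosen by their labels. The cells were ER-Hoxa9-Lys-GFP cells, a C57BL/6 mouse myeloid progenitor culture grown in medium with serum and SCF. They carry Hoxa9 joined to an estrogen receptor domain that answers to estradiol, and a GFP reporter of lysozyme, and all 11 libraries share both. The other 7 libraries, used here only to follow regions found in the 4, came from cells kept in estradiol (1 library), cells withdrawn for 40 h and returned for 80 h (2), cells withdrawn for 56 h and returned for 64 h (2), and cells left without estradiol for 120 h (2). A longer withdrawal always went with a shorter return, so the hours without and the hours back in estradiol cannot be told apart. Whether replicates are separate cultures is not stated, so the spread between them may be technical. The p-values of this comparison rest mostly on that spread pooled over all tested tiles (29.9 prior degrees of freedom against 2 measured at each tile).

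Hoxa9 is a homeobox transcription factor that holds myeloid progenitors in an immature, dividing state, and the fusion protein works only while it is bound by estradiol. When estradiol is washed out the cells begin to mature, and when it is given back the fusion is active again. Methylation of cytosines in CpG pairs is kept up at each cell division by the maintenance enzyme Dnmt1, and it can be lost through Tet enzymes or by dilution over divisions. In mammalian genomes most scattered CpGs are methylated, while CpG-rich promoters mostly are not.

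Reduced representation bisulfite sequencing reads CpG-rich restriction fragments after unmethylated cytosines have been converted. Reads were summed in tiles of 500 bp on chromosomes 1 to 19 of mm9, and a tile was tested when 3 or more of its CpGs had 10 or more reads in each of the 4 libraries. This left 64156 tiles with reads of both kinds. Depth, the sum of reads over listed CpGs, was 16281112 and 46316547 in the 24 h libraries, 34706471 and 23871326 in the 72 h libraries, and 8234933 to 46899896 over the series. A tested tile held a median of 4 covered CpGs at 29.8 reads each. An observation is 1 CpG in 1 read, so a read over several CpGs counts more than once. Reads of 1 PCR product are also not independent molecules. The Wilson intervals given for single libraries treat all observations as independent, so they cover counting error only and are likely too narrow even for that.

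Genes could be set beside the tiles only by CpG spacing. RefSeq promoter sequences (GRCm38.p6, 250 bases before to 50 after a gene's start) were laid over the listed CpGs, and 6188 of 31396 found 1 place where at least 6 CpGs matched and no listed CpG fell elsewhere. Neighbouring placed promoters stood in the order of the RefSeq table in 6167 of 6170 pairs. The nearest placed start to a tile is not always its nearest gene, and whether a tile lies in an exon, an intron or between genes was not analysed here. The promoters of Zfpm1, Slc25a15 and Vps18 are printed because they are the 3 placed starts closest to a tile that moved. Each runs 5′ to 3′ on the gene's strand, and capitals mark the CpGs that the libraries list.
Zfpm1 (plus strand): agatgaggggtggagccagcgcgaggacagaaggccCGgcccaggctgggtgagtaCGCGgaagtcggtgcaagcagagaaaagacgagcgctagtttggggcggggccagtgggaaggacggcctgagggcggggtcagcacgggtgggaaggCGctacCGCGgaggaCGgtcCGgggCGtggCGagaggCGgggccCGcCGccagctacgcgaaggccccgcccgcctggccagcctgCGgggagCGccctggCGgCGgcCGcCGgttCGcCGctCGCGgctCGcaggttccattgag
Slc25a15 (minus strand): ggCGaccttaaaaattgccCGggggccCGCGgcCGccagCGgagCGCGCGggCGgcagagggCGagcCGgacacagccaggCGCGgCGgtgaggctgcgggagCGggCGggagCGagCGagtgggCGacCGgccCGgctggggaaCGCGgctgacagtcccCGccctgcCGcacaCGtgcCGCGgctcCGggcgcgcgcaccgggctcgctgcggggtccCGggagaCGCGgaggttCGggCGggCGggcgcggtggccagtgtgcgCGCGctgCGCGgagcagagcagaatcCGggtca
Vps18 (plus strand): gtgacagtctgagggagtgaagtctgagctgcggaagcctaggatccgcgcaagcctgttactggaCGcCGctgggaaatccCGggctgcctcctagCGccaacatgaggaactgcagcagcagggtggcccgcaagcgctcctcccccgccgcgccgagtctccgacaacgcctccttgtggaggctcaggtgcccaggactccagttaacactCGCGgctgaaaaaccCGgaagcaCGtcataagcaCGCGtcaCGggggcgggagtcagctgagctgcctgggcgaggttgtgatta
The matched CpGs span chr8:124805827-124806075 in Zfpm1 (24 of 37 promoter CpGs), chr8:23508705-23508996 in Slc25a15 (41 of 51) and chr2:119114294-119114484 in Vps18 (11 of 24).

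After 72 h of withdrawal and return, 22 tiles were less methylated than after 24 h and 7 were more methylated. The median difference (72 h minus 24 h) was -27.0 points in the lower tiles, with a range from -43.4 to -4.31, and 21 of the 22 fell by 10 points or more. In the higher tiles it was 23.4 points, with a range from 7.44 to 32.5, and 6 of the 7 rose by 10 points or more. The calls are at a Benjamini-Hochberg adjusted p under 0.05 in a quasi-binomial model with limma's moderation, and they make up 0.0452% of the tiles tested (0.0343% lower, 0.0109% higher). In all 29 tiles each library of 1 group lay above each library of the other, which was so in 31.2% of the tiles tested. At an unadjusted p under 0.05 there were 3201 tiles (4.99%, of which 2.78% lower and 2.21% higher), about the share that no difference at any tile would give. Differences of 10 points or more were found in 1.51% of tested tiles (0.849% lower, 0.662% higher), so nearly all such tiles did not pass. In fits without any 1 of the 4 libraries, in which the lone library was assumed to vary like the other group, 0 tiles passed and only 70 to 151 had an unadjusted p under 0.05, so these fits were too small to bear on the calls. The differences of 18 of the 19 named tiles then stayed within 1.26 times their reported size. Tiles were named for large differences and groups that lay apart, so such small changes follow largely from the choice of tiles. With all 4 libraries, limma on log2 odds called 0 tiles (3470 at an unadjusted p under 0.05).

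**Figure D1:**
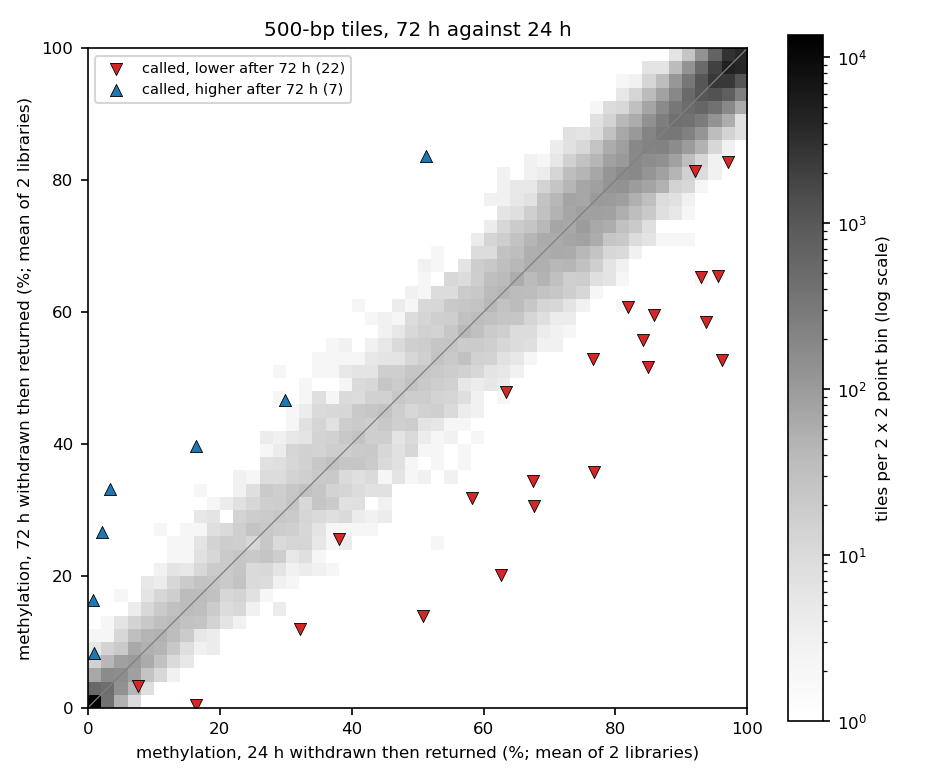
Mean methylation of each tested 500-bp tile in the 2 libraries of 24 h withdrawal (horizontal axis, %) and the 2 of 72 h withdrawal (vertical axis, %), with grey bins counting tiles on a log scale and the line marking equal levels. The 22 lower tiles (red) lie below the line over a wide range of 24 h levels, and 5 of the 7 higher tiles (blue) start under 20%.

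Across all tested tiles the 4 libraries were nearly level. Mean methylation was 65.1% in both 24 h libraries, 64.8% in 72 h replicate 1 and 65.0% in 72 h replicate 2, a mean difference of -0.20 points. In sparse tiles the mean difference was -0.27 points and in dense ones 0.0057 points. Pearson's r across tiles was 0.994 between the 24 h replicates, 0.994 between the 72 h replicates and 0.993 to 0.996 between the groups (tiles are not independent replicates).

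The tile with the largest fall was chr1:178875001-178875500, far from any placed start. It read 97.3% and 95.04% in the 24 h libraries and 49.2% and 56.3% in the 72 h libraries. The difference of -43.4 points had an adjusted p of 3.13e-05. All 3 of its CpGs were lower, with differences from -57.7 to -24.6 points.

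The tile 57.2 kb upstream of the start of Sp3, a zinc-finger factor of GC boxes, lies at chr2:72875501-72876000. Its level was 65.6% and 59.8% after 24 h and 19.8% and 20.4% after 72 h. The 72 h replicates were nearly equal and far below both 24 h libraries (difference -42.6 points, adjusted p = 3.13e-05).

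At chr10:87816501-87817000, 25.1 kb downstream of the start of the predicted gene Gm40733, methylation was 70.8% and 82.7% after 24 h and 38.6% and 33.0% after 72 h (difference -41.0 points, adjusted p = 7.98e-05). Of its 3 CpGs, those at 87816638 and 87816653 differed by -43.1 and -54.2 points, and that at 87816800 was at 52.4% after 24 h and 55.1% after 72 h. The lower level thus held for only part of the tile.

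The tile at chr8:23501501-23502000 lies 7.0 kb downstream of the start of Slc25a15, the mitochondrial ornithine carrier printed above. Methylation was 67.9% and 67.5% after 24 h and 26.9% and 34.1% after 72 h (difference -37.2 points, adjusted p = 0.00288). All 3 CpGs were lower, with differences from -47.1 to -31.5 points. The promoter itself was at 0.0% and 0.080% after 24 h and 0.49% and 0.55% after 72 h, so it was unmethylated in both groups.

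The strongest evidence by adjusted p (7.02e-07) was at chr2:119122501-119123000, 8.27 kb downstream of the start of Vps18, a subunit of the vesicle-tethering complexes of endosomes and lysosomes. The tile read 92.2% and 95.4% after 24 h and 58.2% and 58.9% after 72 h, a difference of -35.3 points. Its 5 CpGs differed widely among themselves. The CpG at position 119122667 went from 92.9% (14 reads) and 96.8% (63 reads) to 7.3% (41 reads) and 19.2% (52 reads), while that at 119122594 went from 90.1% to 86.6% in the mean. The Vps18 promoter was between 0.0 and 1.3% in all 11 libraries.

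A further 7 named tiles fell, with differences from -36.9 to -26.4 points. The tile chr8:125804501-125805000, 51.9 kb upstream of the start of Spire2, an actin nucleator, was at 50% and 51.5% after 24 h and 12.7% and 15% after 72 h (adjusted p = 0.014). The tile chr17:79162501-79163000, 26.9 kb upstream of the start of Strn, a regulatory subunit of protein phosphatase 2A, was at 86.0% and 83.9% against 56.6% and 46.6% (adjusted p = 0.003). The tile chr8:47223501-47224000, 13.4 kb downstream of the start of Snx25, a sorting nexin, was at 66.7% and 68.4% against 34.7% and 34.1% (adjusted p = 0.01). In each of these 3 tiles the groups lay far apart and the replicates close together, except for the 72 h libraries at Strn. The rule that named the tiles picks for such a separation, so it describes them and tests nothing.

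Of the other 4 named lower tiles, chr4:8781001-8781500 went from 96.4% and 94.7% to 68.5% and 62.4%, and chr13:41759001-41759500, 57.8 kb upstream of the start of the predicted gene Gm32184, from 91.7% and 94.2% to 64.1% and 66.7%. The tile chr5:32726001-32726500 went from 86.5% and 82.0% to 61.6% and 50%, and chr19:58206501-58207000 from 59.3% and 57.1% to 33.7% and 29.9%. Their adjusted p-values were 0.000141 to 0.0209. The 10 lower tiles that were not named had differences from -26.2 to -4.31 points, and in all 10 the groups were apart. At chr4:82969501-82970000 they were barely so, with 73.1% and 90.8% after 24 h and 49.5% and 72.0% after 72 h. The smallest fall of the 10, at chr5:116182001-116182500, was from 7.6% to 3.3%, and it lost its call (adjusted p = 0.0587) when the dispersion was allowed to follow depth. The library kept in estradiol was at 3.4% there, close to the 72 h mean.

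**Figure D2:**
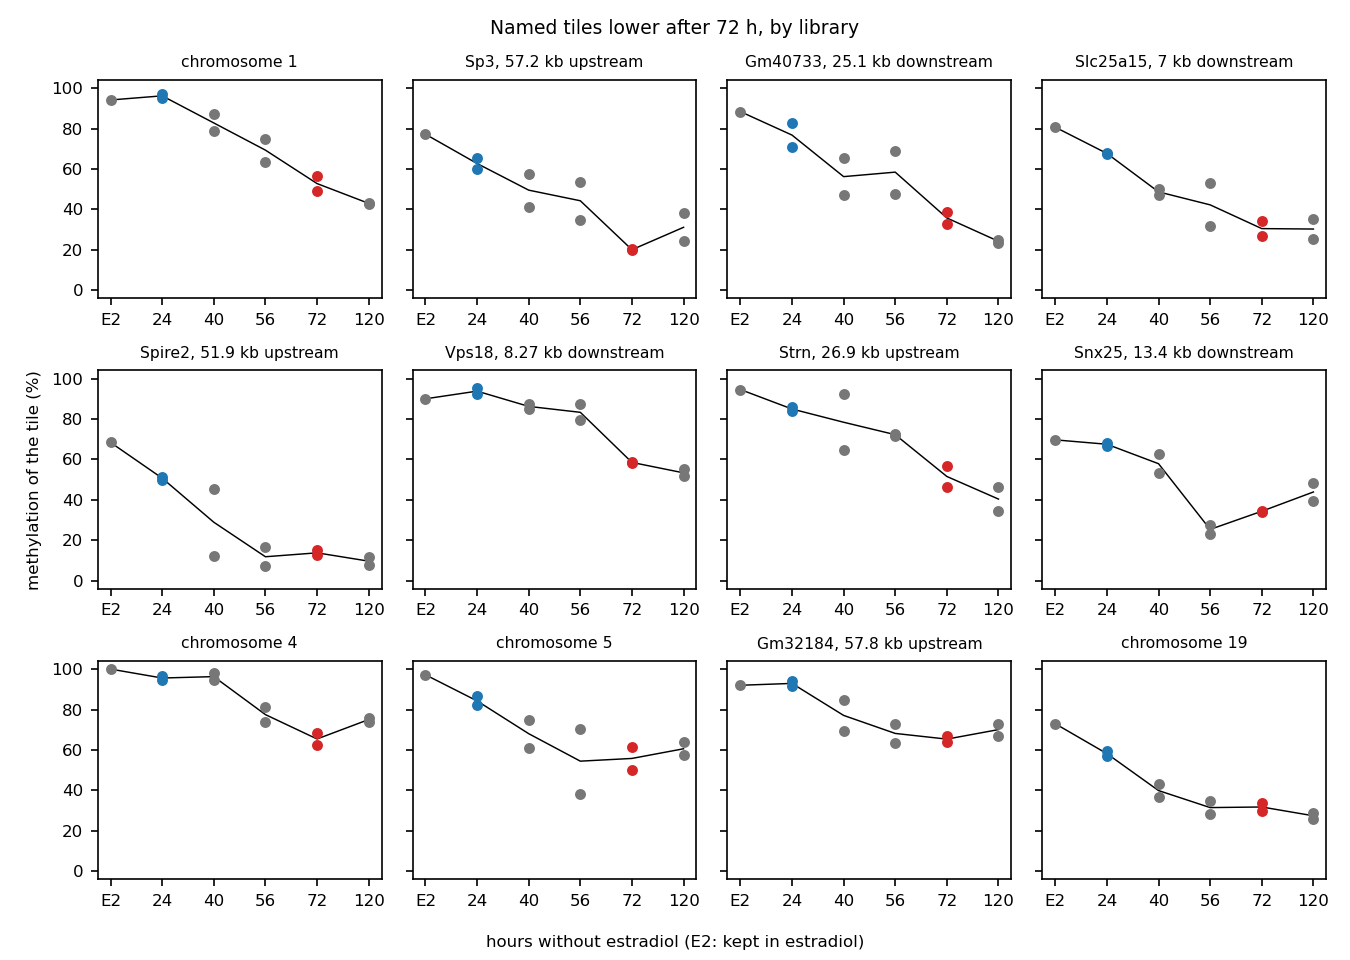
Methylation (%, vertical axis) of the 12 named lower tiles in each of the 11 libraries, grouped by hours without estradiol (horizontal axis, evenly spaced groups and not to scale); points are libraries, blue 24 h, red 72 h, and lines join group means. Panels carry the nearest placed start, or the chromosome where that start is over 100 kb away. The 24 h and 72 h points do not overlap in any panel, as the naming rule requires. The library kept in estradiol is at 68.4 to 100% in all 12.

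The 7 tiles that gained methylation after 72 h began mostly near 0. At chr2:34476001-34476500 methylation was 2.5% and 4.3% after 24 h and 36.9% and 29.4% after 72 h (difference 29.7 points, adjusted p = 3.13e-05). The rise was uneven along the tile. The CpG at 34476319 was at 12.2% after 24 h and 67.3% after 72 h, and the CpG at 34476371 at 1.2% and 2.0%.

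The tile chr8:124810001-124810500 lies 4.21 kb downstream of the start of Zfpm1, which encodes FOG-1, a partner of GATA factors in blood cell formation. It was at 47.6% and 54.8% after 24 h and 83.3% and 84.1% after 72 h (difference 32.5 points, adjusted p = 0.0486). Its 3 CpGs span 9 bp and were all higher, by 16.2 to 50.3 points. The Zfpm1 promoter printed above was at 0.0 to 0.37% in all 11 libraries. This was the call closest to the threshold, and the next tile outside it, chr19:5674501-5675000, rose from 0.12% to 5.5% (adjusted p = 0.0503).

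At chr17:47899501-47900000, 24.9 kb downstream of the start of Tfeb, the main transcription factor of lysosomal genes, methylation was 2.9% and 1.4% after 24 h and 30.2% and 23.1% after 72 h (difference 24.5 points, adjusted p = 0.00288). At chr2:31664001-31664500, 48.8 kb downstream of the start of Abl1, a tyrosine kinase, it was 1.2% and 0.50% against 5.3% and 11.3% (difference 7.44 points, adjusted p = 0.0112). The size of the Abl1 difference depended on the 72 h libraries, being 4.44 points without replicate 2 and 10.43 points without replicate 1. The tile chr5:140199501-140200000, 12.5 kb downstream of the start of Micall2, had 0.0% and 1.6% against 14.4% and 18.2% (adjusted p = 0.00385). These 3 tiles were close to unmethylated after 24 h and at 5.3 to 30.2% after 72 h.

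The tile chr10:81027001-81027500, 62.8 kb downstream of the start of Sirt6, an NAD-dependent deacylase, was at 17.2% and 15.5% after 24 h and 38.9% and 40.6% after 72 h (adjusted p = 0.0031). The tile chr9:44076001-44076500, 34.1 kb upstream of the start of Cbl, a ubiquitin ligase of receptor tyrosine kinases, was at 30.6% and 29.3% against 45.5% and 48.0% (adjusted p = 0.0233). All 13 of its covered CpGs were higher, and it was the only higher tile of the dense class.

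**Figure D3:**
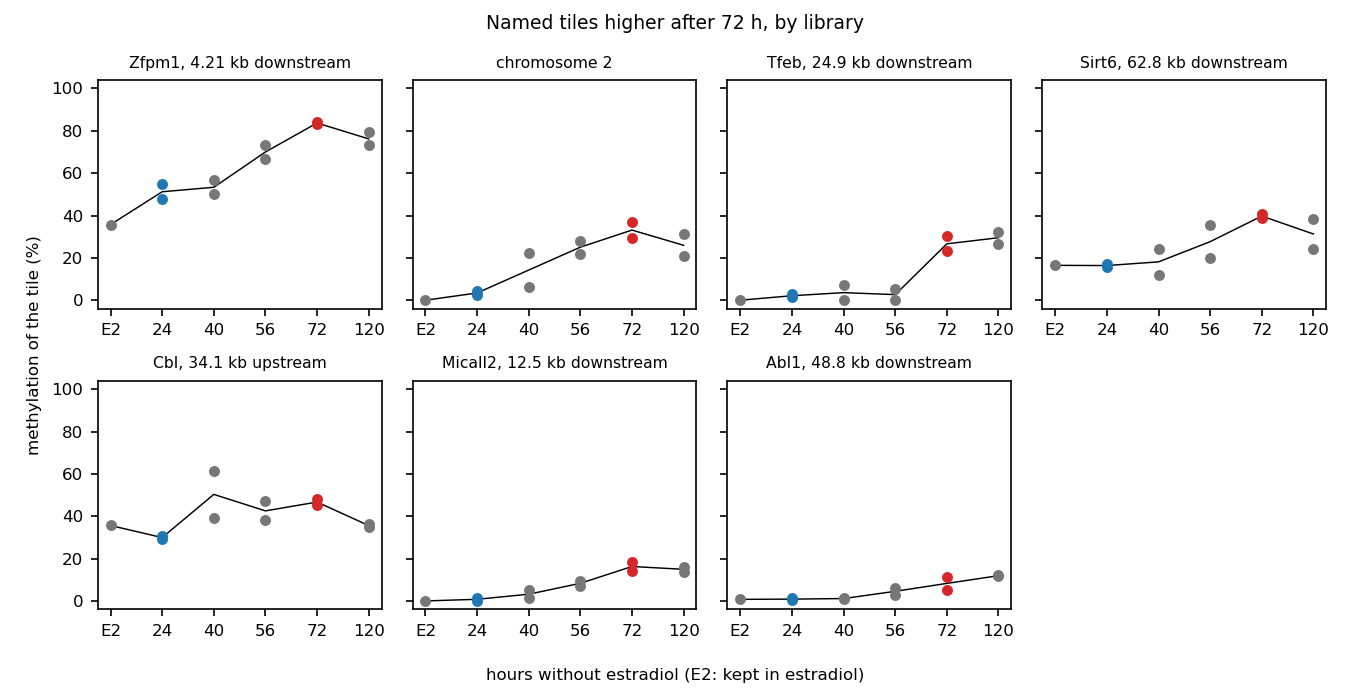
Methylation (%, vertical axis) of the 7 higher tiles in each of the 11 libraries, drawn as for the lower tiles (groups evenly spaced, points are libraries, lines join means). In 5 of the 7 panels the library kept in estradiol is below 20%. The 72 h points lie above the 24 h points in all 7, as the naming rule requires.

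Single CpGs within a tile did not move alike. Of 136 covered CpGs in the 22 lower tiles, 111 had a lower mean after 72 h, and in 12 tiles every CpG did. Of 40 covered CpGs in the 7 higher tiles, 39 had a higher mean, and in 6 tiles every CpG did. These CpGs chose the tiles, so the counts describe the tiles and test nothing. The covered CpGs of a called tile spanned a median of 153 bp in the lower and 94.0 bp in the higher tiles.

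**Figure D4:**
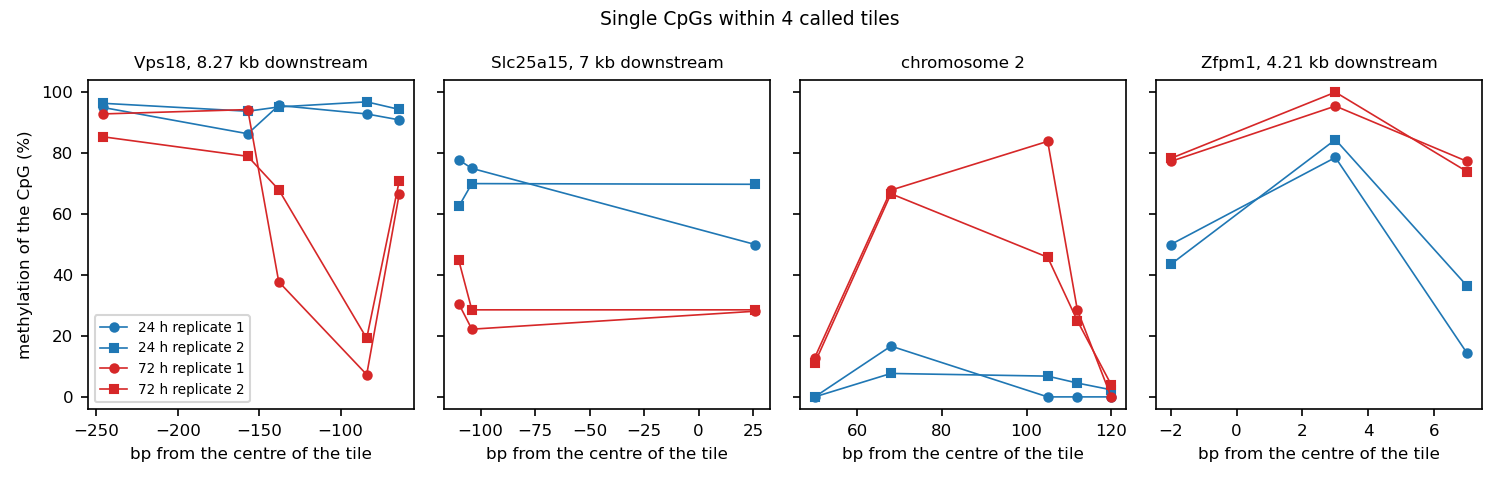
Methylation (%, vertical axis) of each covered CpG against its distance from the centre of the tile (bp) in 2 lower tiles (left) and 2 higher tiles (right), in the 24 h libraries (blue) and the 72 h libraries (red). In the Vps18 tile the fall is deepest at 1 CpG, from 94.8 to 13.3% in the mean, and in the chromosome 2 tile 2 CpGs reach 67.3 and 64.9% in the 72 h mean while the last is at 2.0%.

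Lower and higher tiles differed in where they began, which the direction of a call partly fixes. A low tile has little room to fall and a high tile little room to rise. After 24 h, 10 of the 22 lower tiles were high (over 80%), 10 middle (20 to 80%) and 2 low, against 60.6%, 12.4% and 27.0% of all tested tiles. Of the 7 higher tiles, 5 were low and 2 middle. The 24 h level took part in the calls, so the level in the library kept in estradiol, which did not, is given beside it. The same limits of room hold there, so that level describes the tiles and tests nothing. There, 11 lower tiles were high, 8 middle and 1 low, with 2 under 20 observations. The higher tiles were again 5 low and 2 middle. Middle tiles thus made up 36.4% of the lower and 28.6% of the higher tiles by that library, and 12% of those tested.

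Most tiles that moved held few CpGs, as did most tiles tested. Counting CpGs listed in any library, 17 of 22 lower tiles (77.3%) and 6 of 7 higher tiles (85.7%) had fewer than 10, against 63.0% of tested tiles. The median was 4.5 listed CpGs in lower tiles, 5 in higher and 7 in all tested tiles. Tiles with 25 or more were 2 of the lower (9.09%), 1 of the higher and 10.2% of those tested. Listed CpGs are those in sequenced fragments, so a tile may hold more. Depth was similar, with a median of 32.5 reads per covered CpG in lower, 30.2 in higher and 29.8 in all tested tiles.

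The called tiles were scattered over 12 chromosomes. No pair lay within 10 kb of each other, and the closest, 299500 bp apart on chromosome 10, moved in opposite directions. Chromosome 8 held 6 of the 29 (5 lower, 1 higher) and 5.73% of the tested tiles. Adjoining tiles could be tested beside 6 called tiles. Of these 8 tiles, 3 differed in the direction of their called neighbour and none was called. The largest difference, 7.79 points, was a higher level beside the tile by Gab1, which fell by 15.4 points. No adjoining tile differed by as much as 10 points.

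The distance to the nearest placed start had a median of 75840 bp in lower tiles, 34120 bp in higher tiles and 83680 bp in all tested tiles. A placed start was within 5 kb of 0 of 22 lower and 1 of 7 higher tiles, and of 17.6% of tested tiles. Within 50 kb the counts were 8 of 22, 5 of 7 and 38.8%, and within 100 kb 13 of 22, 6 of 7 and 51.9%. Few called tiles were thus next to a placed start, but as a set they were not farther from one than tested tiles were. Of the placed promoters nearest to the 29 tiles, 23 were under 5% methylated in every library. Another 5 were over 60% in every library, and 1, that of Gfra1, was at 16.3 to 30.2%. These 5 lay 110 to 5620 kb from their tile and that of Gfra1 323 kb, so they are not promoters close to moved tiles. The same shares were not counted over all placed promoters, so the split is not shown to be particular to these tiles. Lists of granule genes, myeloid factors, progenitor genes and genes of the methylation machinery could be followed for 0 of 14, 2 of 9, 1 of 11 and 6 of 7 genes with a placed start. The methylation list (Dnmt1, Dnmt3a, Dnmt3b, Tet2, Tet3, Uhrf1) had 52 tested tiles within 50 kb, with a median difference of -0.11 points and 5 at an unadjusted p under 0.05, against 4.99% of all tested tiles. The placed myeloid factors (Cebpb and Runx1) had 17 tested tiles with 1 such tile, and the progenitor gene Bcl2 had 7 with 0. None of these tiles was called, which at a share of 0.0452% over all tested tiles says nothing of the genes.

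The 29 tiles were then followed in the 7 libraries that took no part in the calls. Averaged over the 22 lower tiles, methylation was 73.9% in the library kept in estradiol, 54.8% and 62.2% in the 40 h libraries, 50.01% and 50.8% in the 56 h libraries, and 44.7% and 46.1% in the 120 h libraries. Over the 7 higher tiles it was 12.7% in continuous estradiol, 19.03% and 22.1% at 40 h, 23.7% and 28.0% at 56 h, and 32.2% in both 120 h libraries. Over all tested tiles these libraries stood between 64.9 and 65.3%. In both sets the levels thus ran in the order of hours in libraries other than those that chose them.

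The order of group means was read tile by tile. In 9 of 22 lower tiles the mean was lower at each step from continuous estradiol through 40 and 56 h to 120 h, as it did in 3.10% of tested tiles. In 5 of 7 higher tiles it was higher at each step, as in 2.06% of tested tiles. At 40 h 18 of 22 lower tiles were below continuous estradiol (44.97% of tested tiles), at 56 h 19 of 22 (45.9%) and at 120 h 19 of 22 (51.1%). All of these counts share the 1 library kept in estradiol.

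The contrast of 120 h with continuous estradiol shares no library with the calls. With at least 20 observations in each library, 17 of 20 lower tiles were lower at 120 h (median difference over the 20 tiles -25.4 points), against 50.8% of tested tiles, and 6 of 7 higher tiles were higher (median over the 7 14.9 points), against 46.5%. Among tested tiles that were high in continuous estradiol 61.6% were lower at 120 h, and 2.36% by 10 points or more. Among middle tiles 44.9% were lower, 10.8% by 10 points or more, and 55.1% were higher. Among low tiles 61.1% were higher and 30.2% lower, 0.14% by 10 points or more. The tile by Gm40733 showed the largest difference, from 88.4% in continuous estradiol (Wilson 95% interval 75.5 to 94.9, 43 observations) to 23.5% and 25% at 120 h. That by Sp3 went from 77.2% (64.8 to 86.2, 57 observations) to 24.3% and 38.1%, and that by Vps18 from 90.0% (78.6 to 95.7, 50 observations) to 55.2% and 51.6%.

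Among higher tiles, that by Zfpm1 went from 35.7% in continuous estradiol (Wilson 95% interval 24.5 to 48.8, 56 observations) through 50% and 56.7% at 40 h and 66.7% and 73.3% at 56 h to 73.1% and 79.2% at 120 h. The tile by Tfeb was at 0.0% of 38 observations in continuous estradiol (upper bound 9.2%), 7.1% and 0.0% at 40 h, 0.0% and 5.3% at 56 h and 32.3% and 26.7% at 120 h. At 40 and 56 h the Tfeb tile had only 12 to 26 observations a library, and the Zfpm1 tile 12 to 30. The Abl1 tile was at 0.75% in continuous estradiol, 1.2% and 1.0% at 40 h, 2.9% and 6.2% at 56 h and 12.2% and 11.6% at 120 h. The Cbl tile was the only higher tile whose 120 h mean was not above continuous estradiol. It was at 35.6% in continuous estradiol, 39.3% and 61.4% at 40 h, 47.1% and 38.0% at 56 h and 35.1% and 36.1% at 120 h.

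In several lower tiles the 120 h libraries were close to the library kept in estradiol. The tile 141 kb downstream of the start of Gab1 was at 58.0% in continuous estradiol and 58.5% ± 4.3 (SD, n = 2) at 120 h, while the 72 h libraries were at 46.0% and 49.9%. The tile 27.7 kb upstream of the start of Hsdl1 was at 63.2% and 65.8% ± 4.6 (SD, n = 2), and the tile 40.5 kb downstream of the start of Snhg5 at 24.1% and 22.6% ± 1.3. At Hsdl1 the 24 h libraries (78.0% and 93.7%) stood farther from continuous estradiol than the 72 h libraries (56.0% and 63.3%). At Gab1 (24 h mean 63.4%) and Snhg5 (24 h mean 32.1%, 72 h mean 11.9%) the 72 h mean was the farther one. The differences between 120 h and continuous estradiol in these 3 tiles, 0.41, 2.61 and -1.52 points, were each smaller than or close to the spread of the 120 h replicates.

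A fit of hours without estradiol over the 7 libraries could use 45825 tiles with 20 or more observations in each, 21 of the called ones among them. No tile passed at an adjusted p under 0.05 (1950, or 4.26%, at an unadjusted p under 0.05). Of the 16 lower tiles in the fit, 8 had an unadjusted p under 0.05, all with a falling slope (2.33% of tiles in the fit), and of the 5 higher tiles 4 did, all rising (1.92%). The smallest adjusted p of a called tile was 0.59, at the Vps18 tile. For 120 h against continuous estradiol the same tiles gave 0 calls (1149, or 2.51%, at an unadjusted p under 0.05, of which 1.54% lower and 0.965% higher), 10 of the 16 lower and 3 of the 5 higher tiles being among the latter. The other 8 called tiles had too few observations for these fits, and none of the 21 that could be fitted was called on the other libraries alone.

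**Figure D5:**
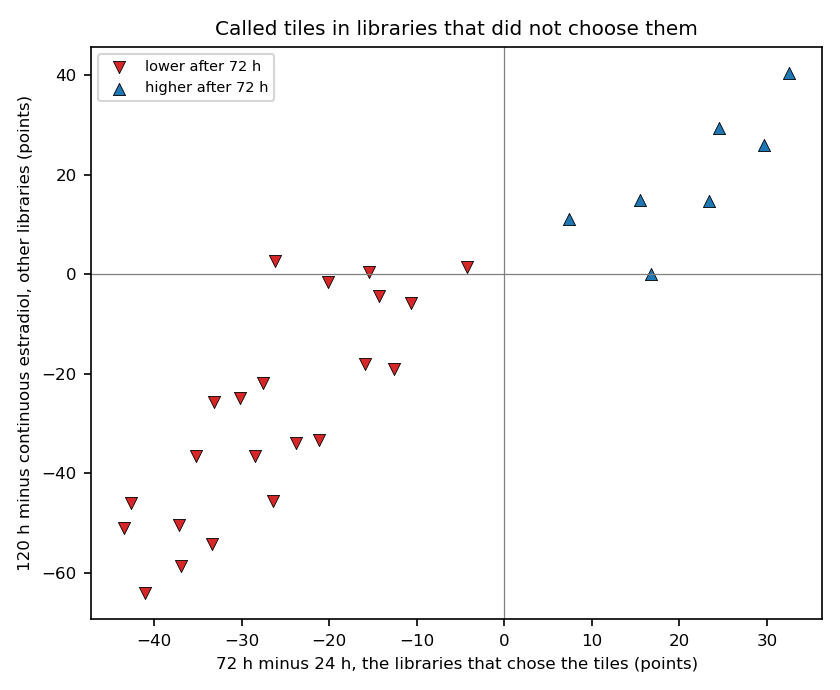
Each called tile by its difference between 72 h and 24 h, which chose it (horizontal axis, percentage points), and its difference between 120 h and continuous estradiol, from 3 libraries that did not (vertical axis, percentage points). Most lower tiles (red) lie in the lower left and 6 of 7 higher tiles (blue) in the upper right, while 3 lower tiles and the Cbl tile lie on the other side of 0.

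The 120 h libraries, left without estradiol, were compared in level with the 72 h libraries, which had 48 h back in it. The mean at 120 h was below that at 72 h in 7 of the 22 lower tiles and lay between the 24 h and 72 h means in the other 15. In the higher tiles it exceeded the 72 h mean in 2 of 7 and lay between in 5. Because the 72 h libraries chose the tiles, their levels there are the more extreme ones by selection, and these counts are a description.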

How the data were processed

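The 11 reduced representation bisulfite libraries were grouped by GEO's labels. Per the file contents, the authors deposited 1 line per CpG with methylated and total read counts and a score, which equalled 1000 times the methylated share (100.0% of lines in each library); tests used the deposited counts. The build was mm9, per the submitters' processing notes. The aligner, the methylation caller and the handling of duplicates are not given in the sources used here.

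Tiles and lists were chosen with earlier results of these data known. Counts were summed in 500-bp tiles over CpGs with at least 10 reads in each of the 4 libraries. Of 65622 tiles with 3 such CpGs, 1466 with reads of 1 kind were dropped. A quasi-binomial model was fitted to each tile (deviance F test, two-sided), with the residual dispersion moderated by limma's squeezeVar (limma 3.58.1, R 4.3.3, Python 3.11.15; 29.9 prior degrees of freedom against 2 measured at each tile) and kept at or above 1. Tiles were named by rule, up to 12 lower and 8 higher with the largest difference and groups apart. Placing promoters by CpG spacing, and naming genes from it, was added after the data were seen and departs from the planned use of an mm9 annotation, and no coordinates were converted between builds.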

Additional observations from a re-analysis of the deposited data

Results flagged for a closer look

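Chromosome X was outside the comparison. When its 3251 tiles were tested with those of chromosomes 1 to 19, an alternative chosen after seeing the data, 3 of them were called, all lower after 72 h. The main fit called 29 of 64156 tiles on chromosomes 1 to 19. At chrX:160514001-160514500 methylation was 51.3% and 53.1% after 24 h and 32.6% and 40.8% after 72 h, a difference of -15.5 points (adjusted p = 0.00201, moderated by limma as above). At chrX:90877501-90878000 it was 59.9% and 59.2% against 41.1% and 44.3% (difference -16.8 points, adjusted p = 0.0284), and at chrX:98527501-98528000 46.0% and 57.1% against 31.8% and 39.2% (difference -16.1 points, adjusted p = 0.0284). In the library kept in estradiol the 3 tiles were at 52.6, 56.3 and 49.6%, and at 120 h at 49.3 and 50.8%, 46.0 and 45.2%, and 40.5 and 50.2%. In the same order, they were at 38.5 and 55.2%, 66.7 and 70.9%, and 50.8 and 54.8% at 40 h. At 56 h they were at 46.4 and 40.2%, 44.6 and 70.1%, and 43.7 and 42.7%.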

How the results depend on the processing

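The count of 29 called tiles fell to 0 under 3 kinds of setting. With all 4 libraries, limma on log2 odds called 0 in total, lower and higher. Without any 1 of the 4 libraries 0 were called (0 to 0), but with 70 to 151 tiles at an unadjusted p under 0.05 those fits were too small to bear on the calls, and the differences of the named tiles changed by at most 1.26 times apart from that by Abl1 (1.67 times). Replicate numbers did not pair the libraries (Pearson's r of the replicate differences across tiles -0.0046), and with the replicate block, which leaves 1 residual degree of freedom, 0 tiles were called (22 at an unadjusted p under 0.05). Calls fell to 3 (2 lower, 1 higher) at a minimum of 20 reads per CpG, where 14647 tiles could be tested. They also fell to 3 (2 lower, 1 higher) with 5 or more covered CpGs, where 28427 tiles could be tested. The 5 named tiles among these kept their differences, but only 2 passed in the same model. Those by Yes1, Cbl and Abl1 had adjusted p-values of 0.0578, 0.0764 and 0.0578 there. Among tiles at 5 to 95% methylation 19 were called, 14 of them lower. Testing 1 CpG at a time gave 74 calls (59 lower, 15 higher), and 13 of the 29 tiles held such a CpG. Pearson dispersion, added after seeing the data, gave 95 (64 lower, 31 higher), with all 29 among them. Other settings gave 22 to 32 calls. A tile grid shifted by 250 bp called 24, overlapping 13 of the 29. The causes of these changes in the count were not tested. Differences of the 19 named tiles kept their direction in all 255 values under other settings, but this was largely fixed in advance. Many settings reuse the same reads of a tile, which leaves the difference as it was. Where groups lie apart, as naming required, the loss of 1 library cannot reverse the sign. The small changes in size without 1 library also follow largely from that choice of tiles. Under limma on log2 odds and with the replicate block, 0 of the 19 named tiles passed the threshold. Over the 7 other libraries the fit of hours gave 0 calls with other minimums of observations, with no lower limit on the dispersion, without each library and with the replicate block. The contrast of 120 h with continuous estradiol gave 0 with other minimums and with no lower limit, the alternatives run for it. Coverage limits the comparison most in 24 h replicate 1 and, among the other libraries, at 40 and 56 h.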
